A study of Mus musculus with 70 samples.

Results

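The genes named Gpr and a number are G protein-coupled receptors that were named from their sequence before a ligand was known, together with a few other membrane proteins that carry the same kind of name. All gene symbols made of Gpr, a number and at most 1 further letter were taken from a table of levels in TPM, the share of a library's transcripts that belongs to a gene after allowing for transcript length, which gave 72 genes of the 34677 listed. That rule used the symbols alone and no measured value, but it was set with earlier results of these data known. Of these 72 genes, 56 reached a mean of at least 1 TPM in at least 1 of 24 groups of libraries and 55 did so in at least 1 of 22 brain regions. "Orphan" describes the set loosely, because ligands have since been proposed or accepted for some of its members.

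A G protein-coupled receptor crosses the membrane several times, binds a ligand outside the cell and passes the signal to a G protein inside, which for the Gs class raises cyclic AMP and for the Gi class lowers it. Some orphan receptors signal without any added ligand, so that their amount alone can set cyclic AMP in the cell. Many orphan receptors are restricted to particular neurons or glia of the brain, and this has made them of interest in the study of feeding, movement and mood.

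The study compared gene expression in brain regions that control energy balance with that in other regions, in embryonic brain and in stem cells. RNA sequencing was done on tissue punches from frozen sections of P56 C57BL/6NTac male mice (57 libraries from 18 regions), of E14.5 C57BL/6NTac embryos (9 libraries from 4 regions) and on the C57BL/6 mouse embryonic stem cell (mESC) lines B6-1 and B6-2 (2 libraries each). The adult regions were 5 hypothalamic areas, namely the arcuate nucleus (ARH), ventromedial (VMH), dorsomedial (DMH) and paraventricular (PVH) nuclei and the lateral hypothalamic area (LHA), 3 hindbrain nuclei, namely the parabrachial nucleus (PB), nucleus of the solitary tract (NTS) and dorsal-vagal complex (DVC), and 3 cortical areas, namely the anterior cingulate area (ACA), frontal pole (FRP) and entorhinal area (ENT). The nucleus accumbens (ACB), the ventral tegmental area (VTA), 4 parts of the cerebellar cortex (CENT2, CUL4-5, UVU and FL) and the cerebellar nuclei (CBN) completed them, and the embryonic regions were forebrain (F), midbrain (M), hindbrain (H) and terminal with peduncular hypothalamus (THy-PHy). No animal carried a transgene or received a treatment as far as the labels say.

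An adult library pooled punches of 3 or 4 mice, except that 1 ACB library came from 1 mouse, and an embryonic library pooled several embryos. Groups had 4 libraries in CENT2, CUL4-5, DMH, FL and NTS, 2 in M, PVH, VMH and each mESC line, 1 in F and 3 elsewhere. By the methods of the study, fewer animals were used than such pools would need without sharing, so libraries of different regions share mice or embryos. The tests treat them as independent, and which ones share an animal is not given in the sources used here, nor is whether the mESC libraries came from separate cultures, so the p-values measure the spread between these libraries. The sample overview of the study lists preparation batches by region and names no library beside them. In it, replicates of a region are spread over batches, while embryos and stem cells have batches in which no adult sample stands, so that developmental stage cannot be told apart from batch. In bulk tissue, fewer cells of a type and less RNA per cell cannot be told apart either.

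Estimated counts per library ran from 13409041 to 20647884 in adult brain, from 9074581 to 22229582 in embryonic brain and from 12985081 to 18501667 in mESC. Defining genes matched most labels, with Drd1 at 138.7 and Adora2a at 204 TPM in ACB, Pomc at 550.7 TPM in ARH, Oxt at 1265 TPM in PVH, Th at 639 TPM in VTA, Pcp2 at 1373 TPM in UVU and Pou5f1 at 996 to 1059 TPM in mESC. Some punches also held neighbouring tissue. VMH, with Nr5a1 at 33.6 TPM, carried the lateral hypothalamic genes Hcrt at 799 TPM and Pmch at 3525 TPM, ARH carried Avp at 865.4 TPM and the pituitary gene Cga at 78.9 TPM, and the choroid plexus list summed to 3495 to 12520 TPM in CBN. ARH also carried the ventromedial genes Nr5a1 at 18.2 TPM and Fezf1 at 35.5 TPM, the latter at 45.3 TPM in VMH. Oxt was at 356 TPM in ARH and 326 TPM in VMH, and Pmch at 743 TPM in ARH. Avp, listed with Oxt for PVH, was at 645 TPM in PVH, below its level in ARH, and at 209 TPM in VMH. Pomc was at 11.5 TPM in VMH. The part of such mixing in the levels of ARH and VMH given below was not tested. VTA replicate 1 stood apart, with 39.62% of its TPM on mitochondrial genes and a sum over the Gpr genes of 354.4 TPM against 850.4 and 765.4 TPM in the other VTA libraries. H replicate 1 was the shallowest library, with 9074581 counts, 22.56% mitochondrial TPM and a Gpr sum of 276.2 TPM against 491.1 and 542.9 TPM.

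Promoters are shown for 5 receptors with steep regional patterns, since they are the sequences next to the starts of the genes that led in ACB and ARH. Each run is the 250 bases before the RefSeq transcription start on GRCm38.p6, read 5′ to 3′ on the gene's strand, and the capitals mark matches on either strand to TATAAA, to the CCAAT box, to the GC box GGGCGG and to TGACG, the short form of the cyclic AMP response element.
Gpr6, chr10:41072291-41072540, minus strand: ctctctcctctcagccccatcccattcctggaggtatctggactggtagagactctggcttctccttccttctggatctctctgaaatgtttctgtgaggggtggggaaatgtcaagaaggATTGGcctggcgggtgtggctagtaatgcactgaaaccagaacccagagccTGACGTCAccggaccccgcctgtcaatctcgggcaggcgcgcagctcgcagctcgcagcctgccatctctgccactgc
Gpr83, chr9:14859960-14860209, plus strand: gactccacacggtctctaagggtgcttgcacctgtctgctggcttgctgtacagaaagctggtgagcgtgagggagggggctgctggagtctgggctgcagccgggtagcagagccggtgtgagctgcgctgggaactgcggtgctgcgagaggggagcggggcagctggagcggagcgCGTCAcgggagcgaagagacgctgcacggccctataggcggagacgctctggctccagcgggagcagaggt
Gpr50, chrX:71663417-71663666, plus strand: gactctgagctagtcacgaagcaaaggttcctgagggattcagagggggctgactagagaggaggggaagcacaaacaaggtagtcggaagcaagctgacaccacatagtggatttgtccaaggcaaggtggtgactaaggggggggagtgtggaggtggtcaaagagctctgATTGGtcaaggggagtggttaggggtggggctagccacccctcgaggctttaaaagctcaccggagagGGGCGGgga
Gpr101, chrX:57503758-57504007, minus strand: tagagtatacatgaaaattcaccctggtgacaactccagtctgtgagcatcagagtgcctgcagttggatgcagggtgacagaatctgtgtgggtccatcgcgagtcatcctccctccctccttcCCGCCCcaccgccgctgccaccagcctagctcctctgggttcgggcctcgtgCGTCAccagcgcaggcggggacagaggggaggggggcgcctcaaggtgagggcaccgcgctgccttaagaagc
Gpr165, chrX:96713218-96713467, plus strand: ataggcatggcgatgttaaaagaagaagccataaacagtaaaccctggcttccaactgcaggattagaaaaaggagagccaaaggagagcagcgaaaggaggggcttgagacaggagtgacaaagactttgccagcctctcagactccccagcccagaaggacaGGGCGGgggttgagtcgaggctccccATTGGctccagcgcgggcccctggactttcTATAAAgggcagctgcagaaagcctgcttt
Distances here count the bases that lie between a match and the start. The Gpr6 promoter holds the full palindrome TGACGTCA, whose overlapping matches end 73 and 70 bases before the start. Single TGACG matches stand 66 bases before the Gpr83 start and 68 bases before the Gpr101 start. A CCAAT match stands 124, 72 and 55 bases before the starts of Gpr6, Gpr50 and Gpr165. Gpr165 is the only gene of these 5 with TATAAA, 24 bases before its start. A GC box stands 3, 119 and 80 bases before the starts of Gpr50, Gpr101 and Gpr165. TGACG occurs in 17.8% of 32851 mouse promoters of this length and in 22.4% of the 67 listed promoters of 51 Gpr genes, CCAAT in 33.9% and 40.3%, GGGCGG in 32.7% and 34.3%, and TATAAA in 12.4% and 8.96%. These matches describe letters in a window and were not tested as sites.

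The Gpr genes were a mixture of broadly expressed and sharply regional genes. At a mean of at least 1 TPM, 34 of the 72 were found in every adult region, 25 in every brain region and 12 in all 24 groups. At least 10 TPM in some group was reached by 41 genes and at least 100 TPM by 3, among them Gpr137 and Gpr162. The number at 1 TPM or more was 49 to 52 in the hypothalamic areas, 46 or 47 in the hindbrain nuclei, 41 to 43 in the cortical areas, 48 in ACB, 42 to 46 in the cerebellar cortex, 35 to 43 in embryonic brain and 17 or 18 in mESC. Summed over all 72 genes, the mean level was 1298 TPM in ACB, 1007 TPM in ARH and 989 TPM in DMH, and 155 and 171 TPM in the mESC lines. Gpr162 led the sum in most brain regions.

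Under 1 TPM in every group stood 16 genes, among them Gpr15, Gpr18, Gpr31b, Gpr33, Gpr39, Gpr65, Gpr82, Gpr84, Gpr119, Gpr132, Gpr141, Gpr142, Gpr143, Gpr152 and Gpr174. Several of these are known from immune cells, gut or skin rather than from neurons. The gene just below the limit was Gpr84, a receptor of myeloid cells, at 0.978 TPM in LHA, and the gene just above it was Gpr183, which guides immune cells along oxysterols, at 1.07 TPM in ACB. Gpr20 passed the limit in stem cells but in no brain region. None of the 72 genes was listed at 0 in every library. A count test could be run on 61 of them, and 11 had too few counts, among them Gpr18, Gpr31b, Gpr33, Gpr39, Gpr119, Gpr132, Gpr141, Gpr142, Gpr152 and Gpr174. The counts of Gpr152 were incomplete, as its summed transcripts differed from the gene-level value by up to 0.132 TPM.

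Regional specificity was measured by tau, which is 0 for a gene with the same mean in all 22 brain regions and 1 for a gene found in 1 region only. The 55 Gpr genes with a brain region at 1 TPM had a median tau of 0.563 (quartiles 0.455 and 0.778), and all 18721 genes at that level had a median of 0.544. Tau was at least 0.8 in 13 Gpr genes (23.6%) and in 3016 of all genes (16.1%). For 15 Gpr genes (27.3%), every library of the highest region lay above every other brain library, which was so for 4152 of all genes (22.2%). The highest region was ACB for 9 of the 55 genes, ARH for 8, UVU and M for 6 each and PVH for 4, and it was NTS, PB, FRP, VTA, FL or H for none. Among all genes, F was the highest region for 17.8%, ARH for 6.25% and ACB for 4.93%.

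**Figure D1:**
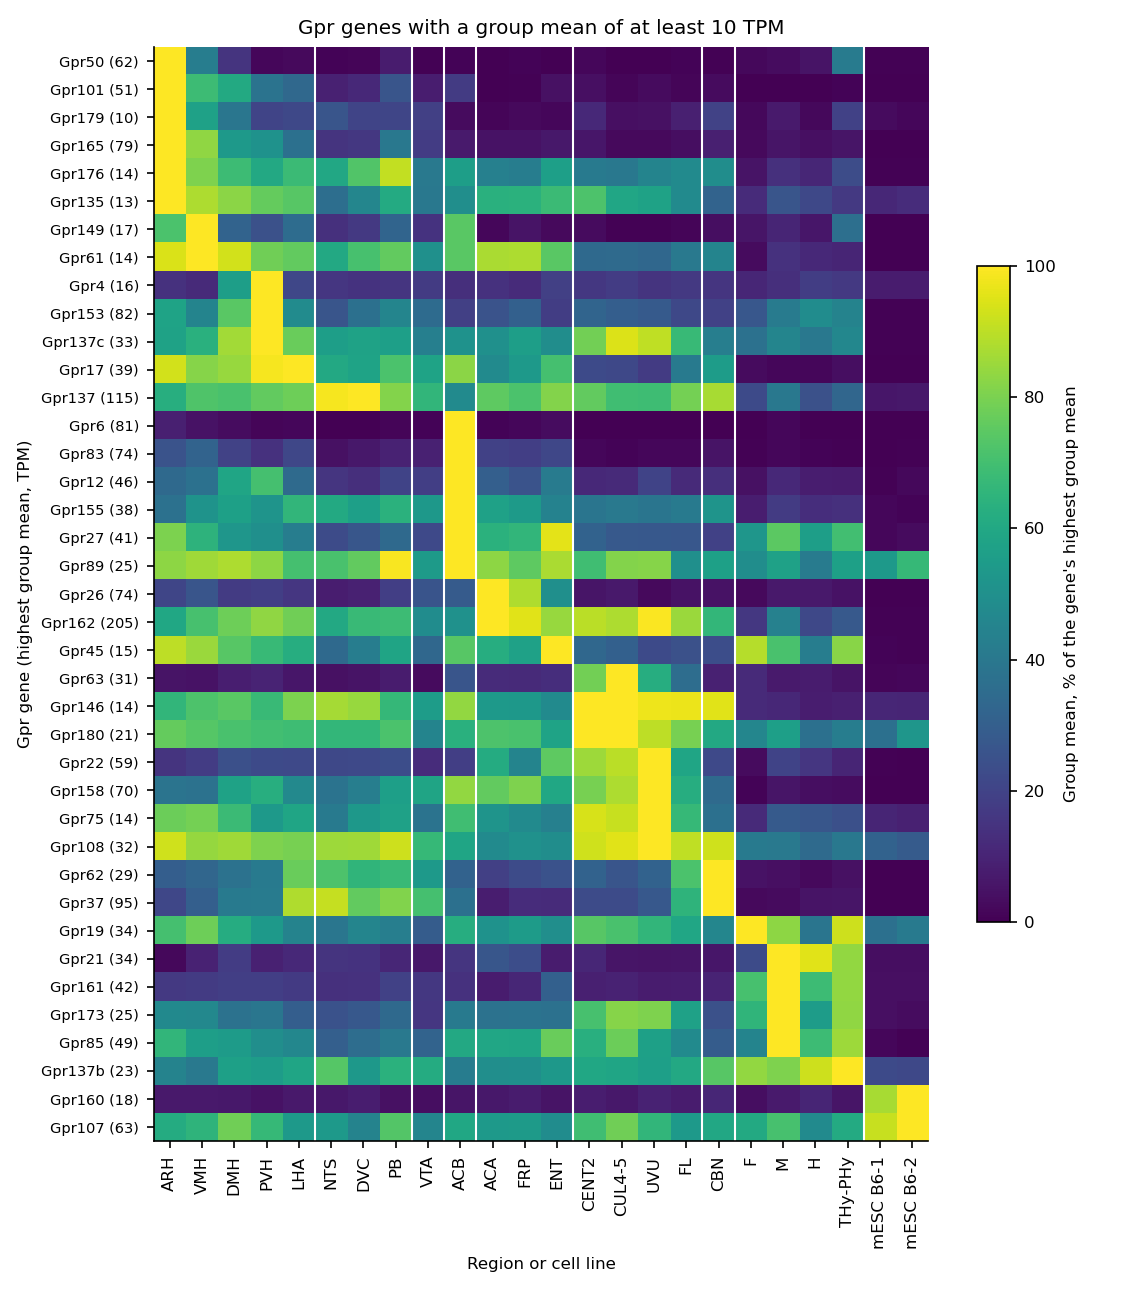
Heatmap of 39 Gpr genes with a group mean of at least 10 TPM over the 24 groups, each cell the group mean as a percent of that gene's highest group mean, with that highest mean in TPM beside the gene's name. Gpr6 is strong in ACB and dark elsewhere, Gpr50 is strong in ARH, and Gpr107 and Gpr108 have colour in every group.

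In ACB, the part of the ventral striatum that handles reward, Gpr6, Gpr83 and Gpr12 each had their highest level. Gpr6, a Gs-coupled receptor with constitutive activity that is known from striatal neurons of the indirect pathway, had 82.8, 92.9 and 67.7 TPM in ACB, 6.56, 7.55 and 7.197 TPM in ARH and 3.75 and 4.20 TPM in VMH. Its mean in ACB of 81.2 ± 12.7 TPM (SD, n = 3) was 11.4 times that in ARH, with no overlap, and tau was 0.985, the highest value among the 55 genes, with 75.5% of the gene's TPM over all groups. Gpr83, a receptor proposed to bind the proSAAS peptide PEN, had 85.9, 83.7 and 53.7 TPM in ACB, against 25.3 and 22.3 TPM in VMH and 18.8, 19.98 and 18.6 TPM in ARH. Its ACB libraries were the highest of all, with 3.13 times the mean of VMH. Pcsk1n, the gene of proSAAS, was at 738 TPM in ARH and 282 TPM in ACB. Gpr12, a sister of Gpr6 with the same constitutive Gs coupling, was less steep, at 43.2, 49.0 and 45.9 TPM in ACB, 34.7 and 30.1 TPM in PVH and 21.7 to 32.1 TPM in DMH, again without overlap.

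**Figure D2:**
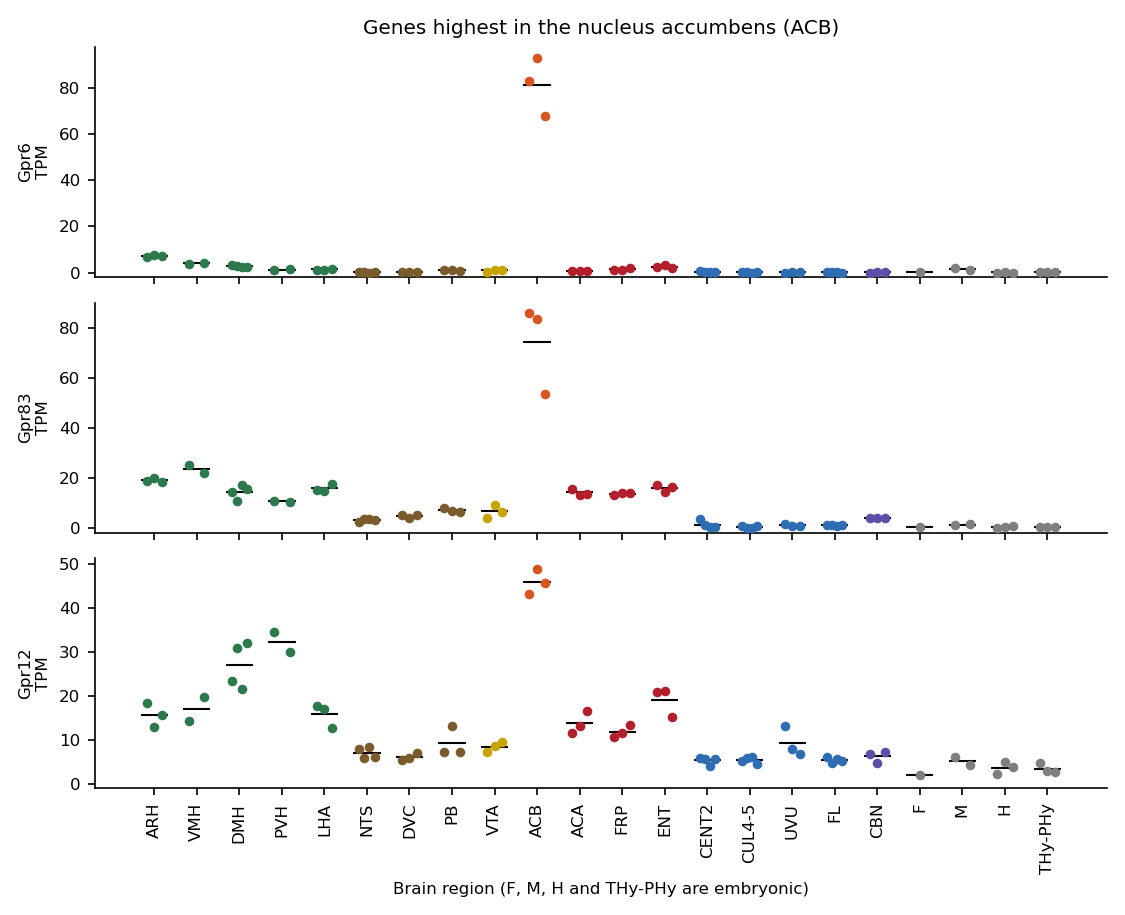
TPM of Gpr6, Gpr83 and Gpr12 in each library of the 22 brain regions, 1 point a library and a line at the mean of the region. All 3 ACB libraries lie above all others for each gene, and for Gpr12 the libraries of PVH and DMH come closest.

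Against the mean of the log levels of the other 17 adult regions, 10 Gpr genes of 61 (16.4%) were higher in ACB, where 7.37% of all 19980 genes tested were called higher, and 5 were lower, where 5.41% of all genes were. Called here and below means an adjusted p under 0.05 and more than a 2-fold change in edgeR's quasi-likelihood test with Benjamini-Hochberg adjustment over all genes tested, and folds are given on the log2 scale with their standard error (SE). The median log2 fold change was 0.19 over the 61 Gpr genes and 0.00 over all genes. Gpr6 was higher by 7.06 ± 0.11 (adjusted p = 8.79e-60), Gpr83 by 3.63 ± 0.14 (adjusted p = 6.03e-28) and Gpr12 by 1.90 ± 0.10 (adjusted p = 1.67e-23). These 3 were among 5 of the 15 called Gpr genes (33.3%) whose ACB libraries did not overlap any other adult library, against 16.9% of all called genes.

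Gpr149, an orphan receptor with little known function, was called higher in ACB by 3.44 ± 0.19 (adjusted p = 8.37e-24), at 14.1, 12.3 and 12.6 TPM, but the highest library lay elsewhere, in VMH at 22.4 TPM. Gpr55, a receptor for lysophosphatidylinositol, was higher by 2.47 ± 0.24 (adjusted p = 1.37e-12), at 1.83 to 3.38 TPM. Gpr151, Gpr27, Gpr101 and Gpr63 were also higher, with log2 fold changes of 1.45, 1.34, 1.28 and 1.01. The Gpr101 call rested on ACB replicate 1, which had 16.1 TPM against 3.39 and 7.399 TPM, and the value was 0.57 without it. Gpr63 was no longer called without ACB replicate 1 or 2, with values of 0.87 to 0.98.

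Lower in ACB were, among others, Gpr179, Gpr182, Gpr139 and Gpr165, with −1.69, −1.35, −1.33 and −1.01. The Gpr139 call was lost without ACB replicate 3 (−1.06) and the Gpr165 call without ACB replicate 2 (−0.73 to −0.99 over the settings that lost it). Of 5 Gpr genes listed for striatal expression, 4 were thus higher and Gpr139 was lower in ACB, and all 5 were also called higher in hypothalamus on the log mean. Of 19 related genes of G protein signalling and ligand supply that carry other names, 4 were higher (7.37% of all genes) and 4 lower (5.41% of all genes) in ACB. The higher ones were Adcy5, Gnal, Gnb5 and Rgs9, and the lower ones were Ch25h, Gnas, Gprc5c and Mrgprf. Gnas was at 704 TPM in ACB and at means of 978 TPM in CUL4-5 to 2813 TPM in DVC over the other adult regions. Rgs9, which speeds the shut-off of G proteins, was at 291 TPM in ACB against 13.2 TPM, Adcy5, the main striatal adenylyl cyclase, at 386 against 47.7 TPM, and Gnal, the striatal Gs-like G protein subunit, at 313 against 70.0 TPM.

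In the hypothalamus, the receptors that stood out were Gpr50, Gpr101, Gpr165 and Gpr179, each highest in ARH, a nucleus beside the third ventricle that senses hormones of energy balance. Gpr50, a relative of the melatonin receptors that does not bind melatonin and is known from tanycytes, stood at 53.8, 69.5 and 63.0 TPM in ARH, at 12.2 and 40.4 TPM in VMH and at 4.52 to 14.3 TPM in DMH. The ARH libraries did not overlap those of VMH, whose libraries differed widely from each other. The ARH mean was 62.1 ± 7.93 TPM (SD, n = 3), 2.36 times that in VMH, with tau 0.938. In embryonic hypothalamus Gpr50 was at 23.5, 31.7 and 22.2 TPM, above every adult region except ARH and VMH by mean.

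Gpr101, a Gs-coupled receptor whose duplication causes gigantism through excess growth hormone, stood at 50.01, 46.9 and 57.4 TPM in ARH, 26.0 and 44.5 TPM in VMH and 21.9 to 37.9 TPM in DMH, and lower, at 14.4 to 24.9 TPM, in PVH and LHA. Gpr165, an orphan receptor with little known function, followed the same order, with 78.8, 73.0 and 84.7 TPM in ARH, 70.5 and 61.1 TPM in VMH, 35.0 to 47.9 TPM in DMH and 28.9 to 32.9 TPM in PB of the hindbrain. For both genes the ARH libraries lay above all others, by 1.46 and 1.20 times the mean of VMH. Gpr179, a class C receptor known for its place in the synapse of retinal bipolar cells, was at 8.92, 11.6 and 10.5 TPM in ARH and at 4.15 and 7.73 TPM in VMH. Over the 24 group means on a log2(TPM + 1) scale, Baiap3 was the gene most like Gpr101 (Pearson r = 0.959) and Igsf1 the one most like Gpr179 (r = 0.916), out of 15424 genes. These values are a description over 24 groups that share stages and tissue.

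**Figure D3:**
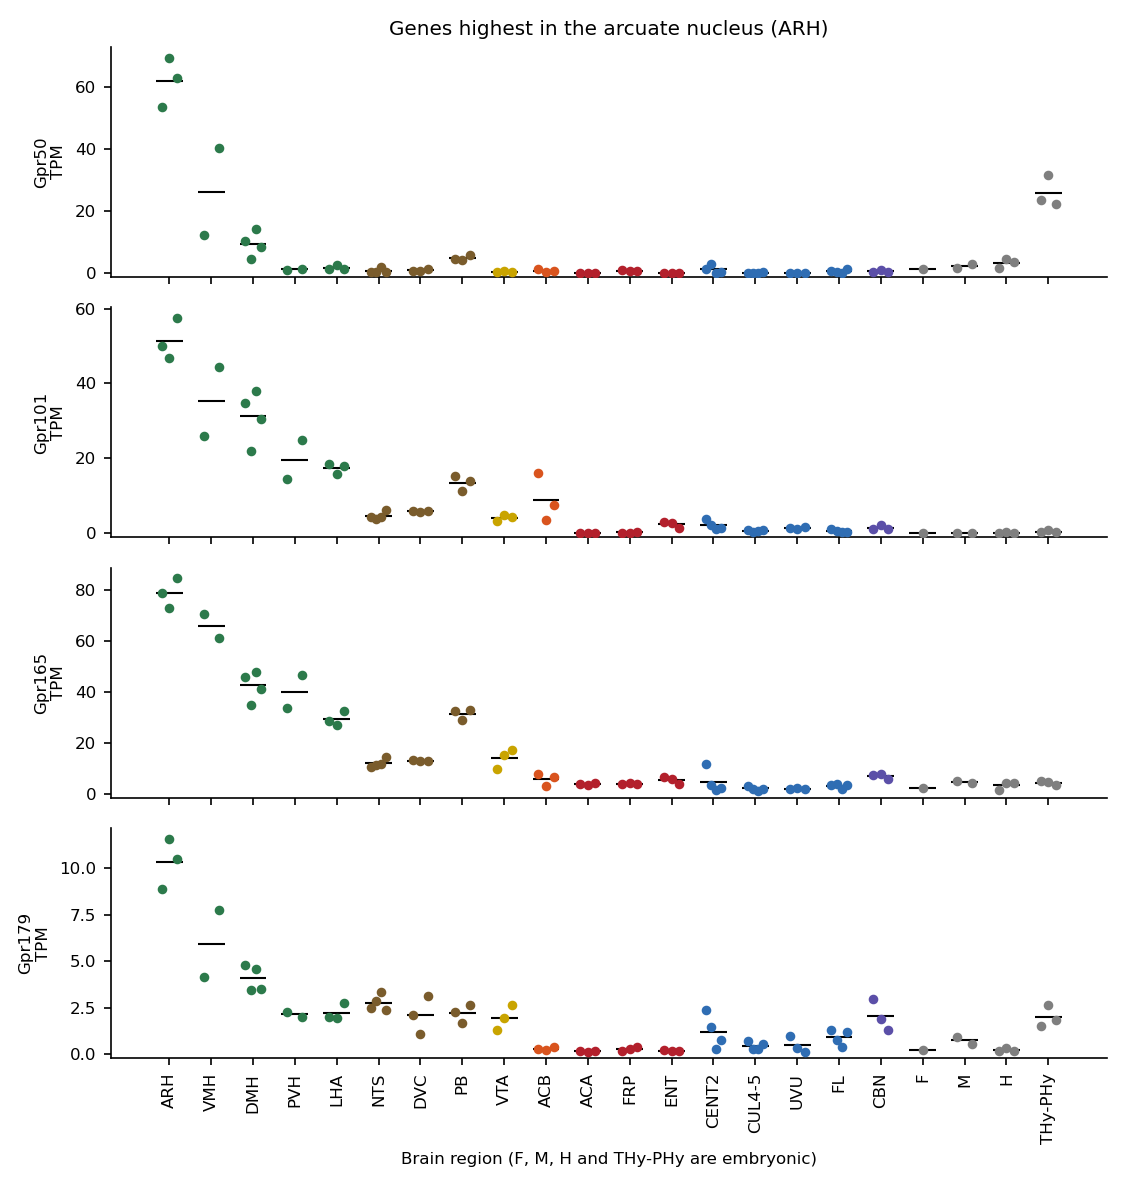
TPM of Gpr50, Gpr101, Gpr165 and Gpr179 in each library of the 22 brain regions, 1 point a library and a line at the mean of the region. ARH is highest for each gene, VMH is next, and Gpr50 alone has embryonic hypothalamus at 22.2 to 31.7 TPM, above DMH.

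Between ARH and the other 4 hypothalamic areas, 5 Gpr genes were higher (4.91% of all genes) and 4 were lower (2.26% of all genes). Gpr50 was higher by 3.85 ± 0.25 (log2, adjusted p = 1.05e-19), Gpr6 by 1.71 ± 0.19 (adjusted p = 4.36e-11) and Gpr179 by 1.28 ± 0.24 (adjusted p = 2.82e-05). Gpr182, a chemokine-binding receptor of the endothelium, was higher by 1.58 ± 0.26 (adjusted p = 3.95e-06), at 4.89, 3.64 and 2.10 TPM against 0.877 to 1.751 TPM. Gpr65, the fifth, stayed under 1 TPM. Gpr101 and Gpr165 were not called in this comparison, since their means in VMH and DMH were also high.

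Lower in ARH were Gpr4 (−1.32 ± 0.22, adjusted p = 5.83e-06), Gpr37 (−1.21 ± 0.18, adjusted p = 3.91e-07), Gpr151 (−1.42 ± 0.34, adjusted p = 0.000969) and Gpr3 (−1.05 ± 0.25, adjusted p = 0.000804). For Gpr4, VMH and not ARH was the lowest adult region, at a mean of 1.96 TPM, and PVH and DMH were highest, at 16.3 and 9.15 TPM. The Gpr3 call was lost without ARH replicate 3 or without PVH replicate 1. The summed pituitary list was at 68.4 to 102 TPM in ARH and at 0 in ACA and ACB, and its part in these differences was not tested. Most of the ARH sum was Cga, at a mean of 78.9 TPM, which was also at 10.4 TPM in THy-PHy. Prl and Gh were highest in ENT, at 3.80 and 9.91 TPM, against 1.27 and 7.93 TPM in ARH, and Gh was at 5.64 TPM in NTS. ARH libraries did not overlap the other hypothalamic ones for 7 of the 9 called Gpr genes (77.8%), against 52.6% of all called genes, the exceptions being Gpr4 and Gpr151. On TPM with limma and a pseudocount of 0.5 the split was 5 higher and 2 lower. Among the 5 hypothalamic areas as a whole, 31 of the 61 Gpr genes differed (adjusted p under 0.05 with no limit on the fold), against 30.7% of all genes.

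The PVH set was of another kind. Gpr4, a proton-sensing receptor known from blood vessels, stood at 16.6 and 15.98 TPM in PVH, at 6.34 to 12.2 TPM in DMH and at means of 1.96 to 3.45 TPM in the other adult regions. Gpr153, an orphan receptor, was at 81.1 and 83.4 TPM in PVH and at a mean of 61.1 TPM in DMH, so that the PVH libraries of both were above the DMH mean. Gpr151, a receptor known from the habenula, was at 1.76 and 4.71 TPM in PVH and at 1.51 to 2.37 TPM in DMH, ranges that overlapped, and its high mean in PVH rests on 1 library. The thalamic genes Tnnt1, Prkcd and Lef1, a list added after these values were seen, summed to 332.8 to 453.0 TPM in PVH and 132.7 to 350.6 TPM in DMH, against 20.7 to 27.0 TPM in ARH and VMH. These genes were not confined to such areas. Prkcd was at means of 55.4 TPM in CENT2 to 101 TPM in UVU, Tnnt1 at 44.9 TPM in H, and Lef1 was highest in THy-PHy, at 56.7 TPM. In LHA the list summed to 50.5 to 179 TPM, where Gpr4 had a mean of 3.45 TPM, and the part of neighbouring thalamus in these levels was not tested.

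Against the other 13 adult regions, 14 Gpr genes of 61 (23.0%) were higher in hypothalamus (5.98% of all genes) and 2 were lower (2.69% of all genes), with a median log2 fold change of 0.19 over the Gpr genes and 0.00 over all genes. Gpr50 led with 4.90 ± 0.29 (adjusted p = 3.5e-23), followed by Gpr101 with 3.93 ± 0.12 (adjusted p = 8.52e-33), Gpr149 with 3.17 ± 0.14 (adjusted p = 3.06e-27), Gpr165 with 2.93 ± 0.11 (adjusted p = 2.07e-30) and Gpr6 with 2.31 ± 0.16 (adjusted p = 1.49e-20). The 14 hypothalamic libraries ranged from 14.4 to 57.4 TPM for Gpr101, with a median of 28.3 TPM, and the other adult libraries from 0.056 to 16.1 TPM, with a median of 1.73 TPM. No gene of the 16 was free of overlap between the hypothalamic and the other adult libraries, against 0.883% of all called genes. Gpr6 belongs to the 14 although ACB is far above hypothalamus, because the comparison averages log levels over regions.

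The other higher genes included Gpr1, Gpr179, Gpr139, Gpr83, Gpr151, Gpr153, Gpr45 and Gpr12, with log2 fold changes of 2.25 down to 1.00. Gpr12 stood at the limit and was not called under 11 other settings, with values of 0.98 to 1.00. The 2 lower genes were Gpr22 (−1.17 ± 0.09, adjusted p = 1.75e-16) and Gpr63 (−1.35 ± 0.09, adjusted p = 5.43e-18), the receptors that were high in cerebellar cortex. Gpr149 was highest in VMH, at 22.4 and 12.53 TPM, a range that overlapped that of ACB (12.3 to 14.1 TPM) and of ARH (9.54 to 14.1 TPM).

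The cerebral cortex was marked by Gpr26, an orphan receptor with constitutive activity. It stood at 81.4, 68.3 and 73.5 TPM in ACA, at 68.9, 71.2 and 56.6 TPM in FRP and at 44.4, 39.6 and 27.0 TPM in ENT, and the other adult libraries reached at most 23.6 TPM. ACA and FRP overlapped each other. Against the other adult regions, 8 Gpr genes were higher in the cortical areas (8.02% of all genes) and 9 were lower (7.83% of all genes). Gpr26 was higher by 2.85 ± 0.11 (adjusted p = 1.65e-28). Gpr1, Gpr83, Gpr6, Gpr27 and Gpr22 were among the others. Gpr162, an orphan receptor known from brain, had its highest mean here too, 205 TPM in ACA, but all adult regions were within 99.5 to 205 TPM.

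Lower in cortex were Gpr101 by −3.83 ± 0.25, Gpr139 by −3.13 ± 0.29, Gpr179 by −2.82 ± 0.24 and Gpr37 by −2.11 ± 0.11 (adjusted p = 1.21e-23), besides Gpr50, Gpr15, Gpr149, Gpr165 and Gpr20. Gpr139, a receptor proposed to sense aromatic amino acids, was at 0.0442, 0.0838 and 0.163 TPM in ACA. Gpr26 and Gpr37 were the called genes without any overlap between cortical and other adult libraries, 2 of 17 (11.8%) against 9.16% of all called genes. On TPM with limma and a pseudocount of 0.5 the split was 4 higher and 8 lower.

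In the cerebellar cortex 4 Gpr genes of 61 (6.56%) were higher (8.03% of all genes) and 19 of 61 (31.1%) were lower (9.71% of all genes), with a median log2 fold change of −0.39 over the Gpr genes and 0.00 over all genes. Gpr63, a receptor proposed to bind a sphingolipid, stood at 27.5, 30.0, 37.6 and 29.5 TPM in CUL4-5, at 20.8 to 28.3 TPM in CENT2, at 16.9 to 24.3 TPM in UVU and at 8.25 to 14.4 TPM in FL. The ranges of CUL4-5 and CENT2 overlapped, and FL was below the other 3 parts. The gene was higher than in the other adult regions by 2.96 ± 0.07 (adjusted p = 9.95e-40), and 108 bases of its exons are shared on the same strand with the gene model Gm11906, so that counts could be split between them.

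Gpr22, an orphan receptor, was at 49.1, 63.4 and 64.9 TPM in UVU and at means of 34.9 to 59.2 TPM over the 4 cerebellar parts, higher by 1.68 ± 0.07 (adjusted p = 5.07e-27). It was also at 44.4 TPM in ENT and 36.4 TPM in ACA, above FL. Gpr171, at a mean of 1.38 TPM in UVU, and Gpr82, under 1 TPM, were the other higher genes, and the Gpr82 call was lost in 9 other settings. The lower genes included Gpr149 (−4.54 ± 0.26, adjusted p = 1.75e-23), Gpr1 (−3.78 ± 0.27) and Gpr83 (−3.60 ± 0.15, adjusted p = 2.37e-27). Gpr149 ranged from 0 to 1.25 TPM and Gpr83 from 0.0815 to 3.68 TPM in the 15 libraries of cerebellar cortex. All 5 genes listed for striatal expression and 2 of the 3 constitutively active Gs-coupled receptors were in the lower set.

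The glial receptors were set beside the markers of their cells, region by region. Gpr37, which is made by myelinating oligodendrocytes, was at 82.5, 97.3 and 105 TPM in CBN, at 80.0 to 93.5 TPM in NTS and at 90.7, 79.6 and 80.3 TPM in LHA, and at 7.999, 7.298 and 7.291 TPM in ACA. Gpr62, another receptor of oligodendrocytes, was highest in CBN too, at 17.3, 33.1 and 35.9 TPM. CBN was the highest and ACA the lowest adult region for both genes. The 4 oligodendrocyte markers listed summed to 9053 to 14755 TPM in CBN and 494 to 560.5 TPM in ACA, and the part of oligodendrocyte content in the 2 receptors was not tested.

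Gpr17, which marks oligodendrocyte precursors about to mature, had another order, with 42.3, 35.0 and 39.2 TPM in LHA and 8.42, 5.53 and 6.43 TPM in UVU. The 3 precursor markers summed to 76.1 to 88.1 TPM in LHA and 18.6 to 21.3 TPM in UVU. In the embryonic libraries those markers stood at 30.9 to 45.1 TPM in THy-PHy and 84.0 TPM in F, while Gpr17 was at means of 0.658 to 1.47 TPM over the 4 regions. Gpr34, a microglial receptor for lysophosphatidylserine, was highest in LHA at 8.63 TPM, with ENT at 8.24 TPM and ACB at 7.87 TPM close behind, and it was at 1.88 to 3.13 TPM in cerebellar cortex. The 4 microglial markers summed to 114 to 132 TPM in ACB, 94.2 to 97.1 TPM in LHA and 22.7 to 54.3 TPM in cerebellar cortex.

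**Figure D4:**
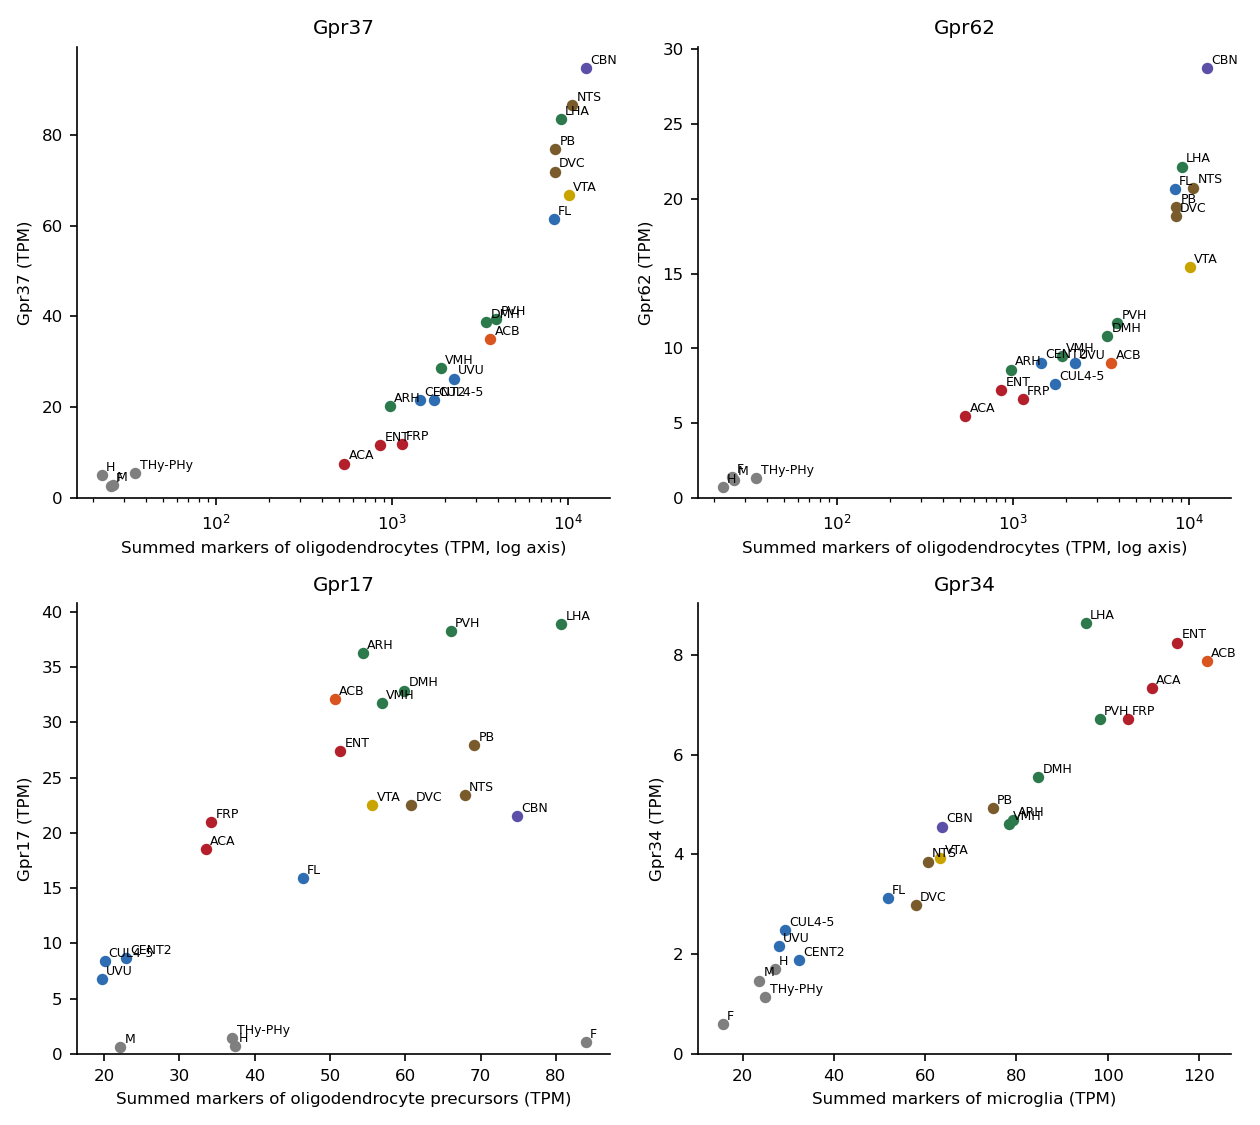
Mean TPM of Gpr37 and Gpr62 against the summed oligodendrocyte markers, of Gpr17 against the precursor markers and of Gpr34 against the microglial markers, 1 point for each of the 22 brain regions, with both axes in TPM and the marker sum on a log axis for oligodendrocytes. The embryonic regions lie at the low end for Gpr37 and Gpr62, while for Gpr17 they lie low at mean marker sums of 22.1 to 84.0 TPM. The sum of 84.0 TPM, in F, holds Olig2 at 72.9 TPM.

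In CBN, 5 Gpr genes were higher than in the other adult regions (7.85% of all genes) and 7 were lower (2.88% of all genes). Gpr37 (1.67 ± 0.12, adjusted p = 2.18e-16) and Gpr62 (1.44 ± 0.16, adjusted p = 4.75e-11) were among the higher genes, and Gpr139 was higher by 2.26 ± 0.23 (adjusted p = 1.01e-11), at 6.12, 6.20 and 6.36 TPM. Gpr15 and Gpr65, the remaining higher genes, stayed under 1 TPM. Gpr6, Gpr171, Gpr26, Gpr101, Gpr27 and Gpr12 were among the lower genes, by −2.97 to −1.03. The Gpr27 and Gpr65 calls were lost without CBN replicate 1, the Gpr12 call without CBN replicate 3 and the Gpr171 call without CBN replicate 2 or 3. On TPM with limma the split was 3 higher and 8 lower.

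In the hindbrain nuclei, 7 Gpr genes were higher (4.99% of all genes) and 4 were lower (2.65% of all genes). Gpr139 was higher by 2.30 ± 0.16 (adjusted p = 3.78e-18), at 4.14 to 6.96 TPM in the 10 hindbrain libraries with a median of 5.49 TPM, and at 0.0442 to 7.15 TPM with a median of 1.06 TPM in the others. Gpr37 was higher by 1.47 ± 0.08 (adjusted p = 4.91e-22), Gpr149 by 1.39 ± 0.17 (adjusted p = 3.42e-10) and Gpr101 by 1.12 ± 0.15 (adjusted p = 3.48e-09). Gpr15 and Gpr179 were among the others, and Gpr179 was not called without DVC replicate 3, with 0.92. Gpr6, Gpr55 and Gpr63 were among the lower genes, by −1.92 to −1.54. Every called Gpr gene overlapped between the nuclei and the rest, and 0.474% of all called genes did not. On TPM with limma and a pseudocount of 0.5 only 2 genes were higher and 3 lower.

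In VTA, the seat of midbrain dopamine neurons, 8 Gpr genes were called higher (6.76% of all genes) and 2 lower (3.46% of all genes), but the split hung on the scale. On TPM with limma and a pseudocount of 0.5, 0 Gpr genes were higher and 5 lower, in a comparison in which the median of all genes was −0.40, and with a pseudocount of 0.1 the split was 1 and 7 and the median −0.48. Without VTA replicate 1, the library rich in mitochondrial reads, edgeR gave 8 higher and 3 lower. Gpr139 was higher by 1.90 ± 0.25 (adjusted p = 9.14e-09), at 2.83 to 4.10 TPM, and Gpr37 by 1.497 ± 0.13 (adjusted p = 2.88e-14), at 38.4, 95.7 and 66.5 TPM, where VTA replicate 1 was the lowest. The Gpr149 call (1.09 ± 0.26) rested on VTA replicate 2, which had 5.27 TPM against 1.15 and 1.19 TPM, and the value turned to −0.022 with limma and a pseudocount of 0.5 (adjusted p = 0.955). The Gpr65 call rested on VTA replicate 1.

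Of the 72 genes, 8 were listed as membrane proteins of the Golgi, lysosome or other organelles rather than typical receptors. Gpr107, a protein of the Golgi, had the lowest tau of the 55 genes, 0.239, with means of 28.1 to 49.0 TPM in the brain regions and 57.4 and 62.7 TPM in the mESC lines. Gpr89, the Golgi pH regulator, ran from 10.3 to 24.8 TPM in the brain and was at 13.4 and 16.6 TPM in mESC. None of these 8 genes was called in the 8 comparisons of an adult region or group of regions, in which 4.91% to 8.03% of all genes were called higher and 2.26% to 9.71% lower. Gpr137, a lysosomal protein, was among the most abundant Gpr genes of the adult brain, at 54.9 TPM in ACB to 115 TPM in DVC, and was at 6.76 and 7.47 TPM in mESC.

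The SREB family (Gpr27, Gpr85 and Gpr173), receptors that are among the most conserved between vertebrates, ran at region means of 3.95 to 49.4 TPM over the brain. Gpr85 and Gpr173 were highest in embryonic midbrain, at 49.4 and 24.8 TPM, and Gpr27 in ACB, at 40.2, 42.1 and 39.7 TPM, a range that overlapped that of ENT at 36.0, 41.0 and 40.1 TPM. Gpr158, a class C receptor of neurons, ran from 24.4 TPM in CBN to 70.4 TPM in UVU among adult regions.

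Between embryonic and adult brain the Gpr genes shifted mostly downwards. In THy-PHy against the adult hypothalamic areas, 6 Gpr genes of 61 (9.84%) were higher (18.4% of all genes) and 30 (49.2%) were lower (20.1% of all genes), with a median log2 fold change of −1.01 over the Gpr genes and 0.00 over all genes. In embryonic hindbrain against the adult hindbrain nuclei, 11 (18.03%) were higher (23.1% of all genes) and 23 (37.7%) were lower (21% of all genes), with medians of −0.63 and 0.01. In the embryonic hindbrain, TPM with limma gave 3 higher and 20 lower with a pseudocount of 0.5 and 4 and 27 with 0.1. Embryonic libraries of hypothalamus did not overlap the adult ones for 30 of the 36 called Gpr genes (83.3%), against 74.3% of all called genes, and those of hindbrain did not for 25 of 34 (73.5%), against 76.96%. The punches of the embryo are not the same nuclei as those of the adult.

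Among the genes higher in both embryonic tissues were Gpr21, Gpr161, Gpr173, Gpr50 and Gpr82. Gpr161, a receptor of the primary cilium that holds back hedgehog signalling, was at 39.2, 32.7 and 33.1 TPM in THy-PHy against 5.58 to 8.61 TPM in adult hypothalamus (2.33 ± 0.11, adjusted p = 3.38e-25), and at 17.01, 31.5 and 37.6 TPM in H (2.27 ± 0.12, adjusted p = 1.55e-23). Its highest mean was in M, at 43.0 and 40.6 TPM. Every embryonic library was above every adult library of the same comparison.

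Gpr21, an orphan receptor, was higher in hypothalamus and hindbrain by 2.55 ± 0.16 (adjusted p = 8.05e-20) and 2.65 ± 0.17 (adjusted p = 3.63e-20). It is an intronless receptor gene inside Rabgap1, with 74 exon bases shared on the same strand, and its 3 embryonic hindbrain libraries spread from 14.9 to 49.3 TPM.

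Gpr50 was higher in embryonic hypothalamus by 1.93 ± 0.25 (adjusted p = 2.81e-10), although its ARH libraries, at 53.8 to 69.5 TPM, were above all embryonic ones, since the adult value averaged 5 areas on the log scale. In hindbrain it was higher by 1.34 ± 0.39 (adjusted p = 0.0018), at 1.63 to 4.35 TPM against 0.239 to 5.61 TPM, and without H replicate 2 the call was lost. Gpr82 stayed under 1 TPM, and its hypothalamic call was lost without THy-PHy replicate 2.

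Lower in the embryo were, among others, Gpr101, Gpr83, Gpr158 and the receptors of the oligodendrocyte lineage. In hypothalamus Gpr101 had 0.227, 0.719 and 0.271 TPM against 14.4 to 57.4 TPM in the adult (−6.07 ± 0.42, adjusted p = 4.92e-19), and Gpr83 had 0.610, 0.350 and 0.489 TPM against 10.7 to 25.3 TPM (−5.09 ± 0.37, adjusted p = 9.97e-18). Gpr158 was at 2.33 to 2.59 TPM against 24.1 to 44.7 TPM (−3.76 ± 0.18, adjusted p = 2.16e-25). None of these embryonic libraries came near an adult one. In hindbrain Gpr101 was lower by −5.43 ± 0.49 (adjusted p = 1.25e-14). The 3 oligodendrocyte-lineage receptors were lower in both tissues: Gpr17 by −4.55 ± 0.20 in hypothalamus (adjusted p = 7.77e-27) and −5.06 ± 0.22 in hindbrain (adjusted p = 5.25e-27), Gpr37 by −2.89 and −4.23, and Gpr62 by −3.17 and −4.66. The summed oligodendrocyte markers were at 14.9 to 38.2 TPM in embryonic brain, and their part was not tested.

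Of the 17 genes listed as neuronal orphans, 11 were lower (20.1% of all genes) and 2 higher (18.4% of all genes) in embryonic hypothalamus. In embryonic hindbrain, 6 of them were lower (21% of all genes) and 3 higher (23.1% of all genes). Of the 61 Gpr genes tested, 49.2% were lower in hypothalamus and 37.7% in hindbrain. Gpr25 had 3 counts in all of embryonic hindbrain, which gives an adult level 17.4 times as high with a counting interval of 5.88 to 85.2. All 3 constitutively active Gs-coupled receptors, Gpr3, Gpr6 and Gpr12, were lower in embryonic hypothalamus, by −3.73, −3.60 and −2.52. Calls of Gpr84, Gpr108, Gpr153 and Gpr157 in hypothalamus and of Gpr34, Gpr55 and Gpr157 in hindbrain were lost when 1 library was left out, THy-PHy replicate 2 for Gpr153 and H replicate 2 for the hindbrain genes.

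**Figure D5:**
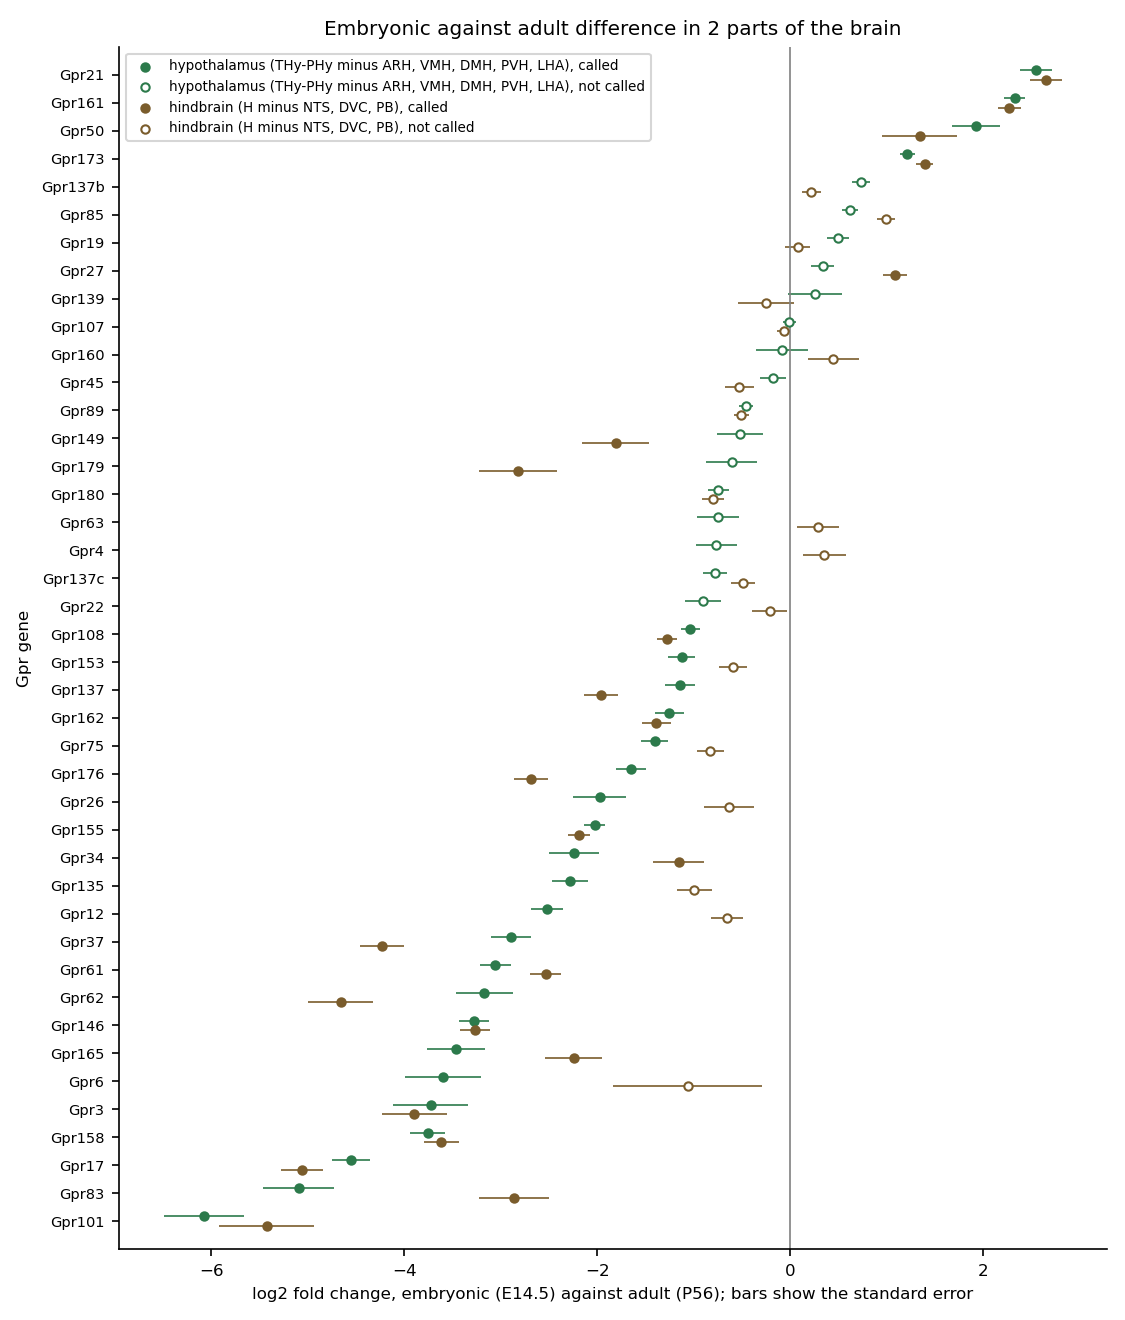
Log2 fold change of embryonic against adult level, with bars of 1 SE, for Gpr genes with a group mean of at least 5 TPM, in hypothalamus (green) and hindbrain (brown), with filled points for called genes. Gpr21 and Gpr161 lie above 2 in both tissues, Gpr17 lies under −4 in both, and most of the others are below 0.

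The change from adult to embryo itself differed between hypothalamus and hindbrain for 16 Gpr genes, 5 with a more positive change in hypothalamus (3.37% of all genes) and 11 with a more negative one (6.36% of all genes). Gpr12 showed the difference with the smallest p, −1.86 ± 0.23 (adjusted p = 2.53e-08). It fell with the embryonic stage in hypothalamus by 2.52 on the log2 scale, and in hindbrain its change was −0.66 (adjusted p = 0.000452), under the 2-fold limit. Gpr37 differed the other way, by 1.34 ± 0.26 (adjusted p = 7.76e-05), with a fall in both tissues that was larger in hindbrain.

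In mESC most Gpr genes were lower than in embryonic brain, and a few were higher. Against M, H and THy-PHy together, 4 Gpr genes of 61 (6.56%) were higher (28% of all genes) and 40 (65.6%) were lower (30.3% of all genes), with a median of −2.89 over the Gpr genes and −0.02 over all genes. Gpr160, an orphan proposed as a receptor of the CART peptide, was at 14.49, 17.6, 18.4 and 18.6 TPM in the 4 stem cell libraries against 0.559 to 2.35 TPM in embryonic brain (4.10 ± 0.16, adjusted p = 1.12e-29), and no adult brain region reached a mean of 2 TPM. Gpr20 was at 2.71, 2.51, 2.04 and 2.15 TPM against 0 to 0.394 TPM (4.02 ± 0.28, adjusted p = 2.46e-20). Gpr1, a chemerin receptor, was higher by 2.66 ± 0.30 (adjusted p = 2.1e-12), at 1.87 to 3.70 TPM, and Gpr143, a receptor of pigment cells, stayed under 1 TPM.

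Among the lower genes, Gpr158 had 3 counts in the 4 stem cell libraries against 1557 in the embryonic ones, a ratio of 279 with a counting interval of 95.1 to 1352, and Gpr165 had 3 against 911, a ratio of 163 with an interval of 55.6 to 792. Gpr45 (7 counts) was lower by −6.81 ± 0.28 (adjusted p = 6.08e-29) and Gpr139 (8 counts) by −6.72 ± 0.57 (adjusted p = 7.76e-16). The fitted values of such nearly empty genes depend on the counts that edgeR adds. These intervals cover counting error only. All 5 genes listed for striatal expression, all 3 of the SREB family and 12 of the 17 neuronal orphans were lower, and 4 of the 8 membrane proteins that are not typical receptors were. Of all genes, 30.3% were lower. On TPM with limma, where the median of all genes was −0.22 to −0.27, the split was 3 higher and 33 or 39 lower.

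Most of the remaining genes are given by their highest region. Gpr19, an orphan receptor linked to the cell cycle, was at 34.4 TPM in the F library and at 31.8 TPM in THy-PHy, and Gpr108, a Golgi protein, at 32.3 TPM in UVU. Gpr155, a lysosomal protein that binds cholesterol, was at 46.2, 35.7 and 32.2 TPM in ACB. Gpr137b, Gpr137c and Gpr180 had their highest means in THy-PHy (23.1 TPM), PVH (32.8 TPM) and CUL4-5 (21.2 TPM). Gpr135 (13.1 TPM) and Gpr176 (13.8 TPM, an orphan of the circadian clock in the suprachiasmatic nucleus) led in ARH, Gpr61 in VMH (13.7 TPM), Gpr45 in ENT (15.3 TPM), Gpr75 in UVU (13.7 TPM) and Gpr146 in CUL4-5 (13.7 TPM). Below 10 TPM in every region were, among others, Gpr3, with 9.16 TPM in DVC, Gpr25 with 4.68 TPM in ENT, Gpr157 with 2.92 TPM in CENT2, Gpr1 with 2.24 TPM in ARH and Gpr35 with 1.70 TPM in VMH.

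Over all 18 adult regions, 58 of the 61 Gpr genes tested differed among regions (adjusted p under 0.05 with no limit on the fold), against 82.4% of all genes, and the exceptions were Gpr143, Gpr160 and Gpr82. Of the 72 genes, 9 lie on chromosome X. Exon bases on the same strand were shared with another gene in 4, which besides Gpr21 (74 bases with Rabgap1) and Gpr63 (108 with Gm11906) are Gpr75 (127 with Asb3) and Gpr176 (133 with Gm29232), and 21 were overlapped by an exon on the opposite strand. The libraries were strand-specific, and whether the counting used the strand is not given in the sources used here.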

How the data were processed

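Total RNA of tissue punches and stem cells was made into strand-specific mRNA libraries (KAPA kit) and sequenced as single reads of 33 cycles. Per the labels and the study's methods, the authors ran CASAVA 1.8.2 and Kallisto on GRCm38 and deposited estimated counts and TPM per transcript and TPM summed per gene. The authors' TPM values were used as deposited for levels. The deposited estimated counts were summed per gene name with GENCODE M21, which held 107987 of the 109282 transcripts (98.8%), and rounded to whole numbers. The main test was edgeR 4.0.16 (R 4.3.3) with TMM factors, filterByExpr, a quasi-likelihood fit of all 70 libraries with 1 coefficient per group, and Benjamini-Hochberg adjustment over the 19980 genes tested, where a call needed an adjusted p under 0.05 and more than a 2-fold change. Alternatives were DESeq2 1.42.0, limma 3.58.1 on log2(TPM + 0.5) and log2(TPM + 0.1), no filter, no mESC libraries, a replicate block and each library left out. Tau used mean TPM of the 22 brain regions. Counts were also simulated from these libraries for ACB against the other adult regions (17794 genes). At an adjusted p under 0.05 with no limit on the fold, edgeR found 98 of 100 genes changed 2-fold and 100 of 100 changed 4-fold. It also found 8 unchanged genes. The 2-fold genes had a median absolute log2 fold change of 1.01, at the limit that calls use. The simulation gave all genes 1 spread and unchanged genes the same mean share in every group, so it was simpler than the data. Read depth of 9074581 to 22229582 counts sets the precision. Genes were described in full where tau was highest among those with a region mean of at least 5 TPM (15 genes), and the 5 with the largest change in each direction were named for each comparison; other names were chosen after their values were seen. Counts are over all 72 genes, but some single genes are not reported here. The members, role lists and tests were chosen with earlier results of these data known. Python 3.11.15, NumPy 2.4.6, pandas 2.3.3 and matplotlib 3.10.9 were used for summaries and figures. Promoters came from RefSeq on GRCm38.p6.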

Additional observations from a re-analysis of the deposited data

Results flagged for a closer look

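In NTS, 1 library stood far from the others for Gpr50, with 1.80 TPM in NTS replicate 3 against 0.239 to 0.406 TPM in the other 3. It was the only such case in 80 groups of 4 libraries looked at, where chance alone flags about 1 in 20.

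The change from adult to embryonic level differed between hypothalamus and hindbrain, by a test of the difference itself (edgeR's quasi-likelihood test with Benjamini-Hochberg adjustment, a contrast added after the data had been seen), for 16 Gpr genes, of which 15 are named here. More negative in hypothalamus were Gpr151 (−2.78 ± 0.52, adjusted p = 5.15e-05), Gpr83 (−2.24 ± 0.58, adjusted p = 0.0025), Gpr12 (−1.86 ± 0.23, adjusted p = 2.53e-08), Gpr26 (−1.34 ± 0.35, adjusted p = 0.0029) and Gpr135 (−1.28 ± 0.25, adjusted p = 0.000112). The same sign was seen for Gpr165 (−1.22 ± 0.38, adjusted p = 0.0119), Gpr4 (−1.12 ± 0.31, adjusted p = 0.0043), Gpr182 (−1.10 ± 0.41, adjusted p = 0.0371), Gpr34 (−1.09 ± 0.39, adjusted p = 0.0281) and Gpr63 (−1.04 ± 0.31, adjusted p = 0.00805). More positive in hypothalamus were Gpr179 (2.21 ± 0.49, adjusted p = 0.00044), Gpr62 (1.49 ± 0.50, adjusted p = 0.0189), Gpr37 (1.34 ± 0.26, adjusted p = 7.76e-05), Gpr149 (1.29 ± 0.43, adjusted p = 0.0162) and Gpr176 (1.03 ± 0.22, adjusted p = 0.000361). The values are on the log2 scale with their SE. Some of these calls were lost under other settings. With limma at both pseudocounts, those of Gpr165, Gpr4, Gpr182 and Gpr63 were lost, and with no filter those of Gpr182 and Gpr63. The Gpr34 call was lost with limma and a pseudocount of 0.5, and the Gpr149 call with 0.1. The summed thalamic genes were high in PVH and DMH of the adult, where Gpr4 and Gpr153 also had their highest levels, and their part in these differences was not tested. H replicate 1, with 22.56% mitochondrial TPM, is in the embryonic hindbrain group.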

How the results depend on the processing

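Direction held for all but 1 of the single-gene calls under the alternatives run: only Gpr149 in VTA turned, to −0.022 with limma on log2(TPM + 0.5) from 1.09. With limma the number of Gpr genes called fell from 31 to 19 among the hypothalamic areas (pseudocount 0.1), from 11 to 5 in the hindbrain nuclei and from 10 to 5 in VTA (both 0.5). Genes with tau of at least 0.8 fell from 13 to 1 when tau was taken on log2(TPM + 1), which flattens ratios by construction; elsewhere the cause was not tested. Of 243 single-gene calls, 237 kept their call with DESeq2, 237 with no filter and 243 with the replicate block. Of 225 that limma could give, 198 did with a pseudocount of 0.1 and 171 with 0.5. Leaving out 1 library kept 2810 of 2879 single-gene calls, and the number of Gpr genes called then ran over 57 to 59 (adult regions), 27 to 33 (hypothalamic areas), 15 to 16 (hypothalamus), 9 to 12 (hindbrain), 17 to 19 (cortex), 14 to 16 (ACB), 9 to 11 (VTA), 22 to 23 (cerebellar cortex), 10 to 13 (CBN), 8 to 10 (ARH), 34 to 37 (embryonic hypothalamus), 33 to 36 (embryonic hindbrain) and 41 to 45 (mESC). For the comparisons with all other adult regions only libraries of the region itself were left out, besides VTA replicate 1, the F library was never left out, and the difference between the developmental changes was rerun without VTA replicate 1 alone. With the replicate number as a block the calls were 58 (adult regions), 31 (hypothalamic areas), 16 (hypothalamus), 11 (hindbrain), 17 (cortex), 10 (ARH) and 46 (mESC), and it moved no count by over 1.5 times. The deviations of same-numbered libraries of different regions from their group means had a median correlation of 0.008 over 669 pairs, 51 of them above 0.1. For other pairs the median was −0.004 over 1603 pairs, 77 of them above 0.1. The numbers thus showed no clear pairing of libraries, and a block on them does not test shared animals or batches. Depth limits the 16 genes under 1 TPM and the 11 not tested, of which Gpr152 also had incomplete transcript counts.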

Other observations

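Transcripts of a few Gpr genes took different shares of the gene's TPM in different regions, in groups with at least 5 TPM of the gene. These are estimates from short single reads and were not tested. For Gpr45, ENSMUST00000179766 made up 12.4% in the F library and 81.6% in VMH. For Gpr137, ENSMUST00000099776 was at 0% in ACB and at 52.2% in H, where the 3 libraries ran from 38.4% to 67.2%. For Gpr137b, ENSMUST00000021738 was at 33.7% in H and at 80.6% in DVC, and for Gpr153, ENSMUST00000144035 was at 28.5% in the F library and at 76.4% in H.

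The genes whose group means were most like those of a Gpr gene over the 24 groups, on the log2(TPM + 1) scale and out of 15424 genes, were Ido1 for Gpr6 (Pearson r = 0.918), Mchr1 for Gpr83 (r = 0.957), Jakmip1 for Gpr12 (r = 0.952), Gm45194 for Gpr50 (r = 0.894), Pcbd1 for Gpr165 (r = 0.959), Cmya5 for Gpr63 (r = 0.947), Csmd1 for Gpr26 (r = 0.958), Hap1 for Gpr149 (r = 0.926), Asxl3 for Gpr21 (r = 0.922), Dpysl5 for Gpr161 (r = 0.961) and Endou for Gpr4 (r = 0.910). Mchr1 is the receptor of melanin-concentrating hormone. The groups share stages and tissue, so these are descriptions.

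Gpr37l1, a relative of Gpr37 whose name keeps it outside the set and that is known from astrocytes, was at 0.141 TPM in embryonic hypothalamus against 161 TPM in the adult areas (−10.03) and at 0.0605 TPM against 214 TPM in hindbrain (−11.79), both on the log2 scale and both called by edgeR. Among the 19 related genes, 13 were lower (20.1% of all genes) and 4 higher (18.4% of all genes) in embryonic hypothalamus. In embryonic hindbrain, 13 were lower (21% of all genes) and 3 higher (23.1% of all genes). CENT2 replicate 1 was the highest library of its group for Gpr165 (11.7 TPM), Gpr101 (3.84 TPM), Gpr179 (2.38 TPM) and Gpr139 (1.88 TPM), genes that are higher in hypothalamus or hindbrain nuclei than in cerebellar cortex.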
